A study of Mus musculus with 12 samples.

Results

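Glutathione transferases, glutathione peroxidases and peroxiredoxins, the enzymes that attach glutathione to reactive molecules or use thiols to reduce peroxides, were followed gene by gene in sorted mouse alveolar type 2 (AT2) cells. Members were all genes of the deposited table whose symbol begins with Gsta, Gstk, Gstm, Gsto, Gstp, Gstt, Gstz, Mgst, Gpx or Prdx followed by a digit, a rule that uses no measured value. It gave 39 of the 21878 genes listed, namely 24 transferases, 8 peroxidases and 7 peroxiredoxins. Of these, 34 reached at least 1 FPKM (fragments scaled to transcript length and library size) in at least 3 samples and were tested among 10675 such genes. Gpx5, Gpx6, Gsto2, Gstt4 and Prdx6b did not pass this filter: Gpx5 and Prdx6b were listed at 0 in all 12 samples, and Gsto2, the highest of the others, reached at most 0.977 FPKM.

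The study asked how loss of the autophagy gene Atg5 alters AT2 cells after bleomycin (BLM), an anticancer drug used to damage alveoli. RNA was measured in 4 groups of 3 samples from C57BL/6 mice, which the methods give as males of 8 to 12 weeks. AT2-PBS and AT2-BLM came from Atg5 f/f mice, labelled wild type, that carry the floxed allele without Cre and received PBS or 2 U/kg BLM into the trachea. Atg5-/- AT2-PBS and Atg5-/- AT2-BLM came from Nkx2.1Cre; Atg5 f/f mice given PBS or BLM. Nkx2.1 is active in the developing lung epithelium of both airways and alveoli, so its Cre is not restricted to AT2 cells. The labels put sampling at day 14 for all groups but Atg5-/- AT2-PBS, for which no day was found. The sorting gate kept EpCAM+ cells without CD31, CD34, CD45, CD24 or Sca-1, and whether a sample pools animals is not given in the sources used here.

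Glutathione is a small thiol that donates electrons to peroxidases and is joined to electrophiles by transferases, which fall into cytosolic classes named by Greek letters, a mitochondrial kappa class and a membrane-bound microsomal family. Glutathione peroxidases of the selenium type carry selenocysteine, an amino acid encoded by a TGA codon that otherwise ends translation, at the site that meets the peroxide. Peroxiredoxins use a cysteine for the same chemistry and are recharged mostly by thioredoxin, and in the lung the family member Prdx6 also cleaves surfactant phospholipids.

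The codon at the peroxidatic site separates the peroxidase genes into 2 kinds and is shown because members of each kind are described separately below. In the coding sequences of the GENCODE annotation of mm9 (NCBIM37), the site was found by the letters of its conserved surroundings, and the site codon is written in capitals. Each line is read 5′ to 3′ along the coding strand.
Gpx1: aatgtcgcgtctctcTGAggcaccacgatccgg
Gpx2: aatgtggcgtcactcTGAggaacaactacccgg
Gpx3: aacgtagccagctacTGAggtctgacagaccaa
Gpx4: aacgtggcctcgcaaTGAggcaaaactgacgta
Gpx7: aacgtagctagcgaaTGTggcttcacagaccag
Gpx8: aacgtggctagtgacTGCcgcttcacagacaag
Gpx1 to Gpx4 each hold 1 TGA inside the reading frame, and Gpx7 and Gpx8 hold a cysteine codon (TGT or TGC) there, as do Gpx5 and Gpx6, which did not pass the filter. The TGA lies at chr9:108241782-108241784 in Gpx1 (+ strand), chr12:77896243-77896245 in Gpx2 (- strand), chr11:54720758-54720760 in Gpx3 (+ strand) and chr10:79517482-79517484 in Gpx4 (+ strand). The cysteine codon lies at chr4:108076035-108076037 in Gpx7 (- strand) and chr13:113835869-113835871 in Gpx8 (- strand).

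Members also share neighbourhoods and sequence, which bears on how their reads can be told apart. The 7 mu genes lie side by side on chromosome 3 between 107698739 and 107847812 (mm9), and the annotated spans of Gstm3 and Gstm6 overlap. Aligned over their coding sequences, Gstp1 and Gstp2 were 98.1% identical, Gsta1 and Gsta2 97.5%, Prdx6 and Prdx6b 92.9% and Gstm1 and Gstm3 89.5%. Values of Gsta1, Gsta2, Gstp2 and the low mu genes are therefore uncertain, because reads from near-identical copies could be divided between them.

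Promoters were searched on both strands, from 250 bases before to 50 bases after each RefSeq start (GRCm38.p6), for the antioxidant-element core TGACNNNGC and for the AP-1 motif TGACTCA, which can overlap it. Of 35 members with an entry, 5 (14.3%) held TGACNNNGC, against 13.99% of 27025 genes, and 5 (14.3%) held TGACTCA, against 5.95%. A match is a description of letters and not a measured site. Windows of 3 well-expressed members are shown for context, each on its gene's strand and ending before the start, with the match in capitals; in Gstp1 and Prdx1 the match reads on the opposite strand.
Gsta3, chr1:21240439-21240497 (GRCm38.p6, + strand): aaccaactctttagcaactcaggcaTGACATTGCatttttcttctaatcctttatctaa
Gstp1, chr19:4037955-4038011 (GRCm38.p6, - strand): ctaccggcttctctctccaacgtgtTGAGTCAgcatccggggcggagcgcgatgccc
Prdx1, chr4:116685441-116685499 (GRCm38.p6, + strand): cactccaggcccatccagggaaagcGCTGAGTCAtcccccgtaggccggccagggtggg

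Several libraries stood apart. AT2 marker genes other than Sftpc were present in every sample, summing to 61761 to 82559.8 FPKM in AT2-PBS, 39017 to 68295 in AT2-BLM with the lowest value in replicate 3, 61722 to 64567 in Atg5-/- AT2-PBS and 63902 to 67169 in Atg5-/- AT2-BLM. Sftpc, the defining surfactant gene, was listed at 0 in 11 of 12 samples and at 112570 FPKM in AT2-BLM replicate 2, so it checks nothing. The 3 Atg5-/- AT2-PBS samples stood above all others for the club, leukocyte, hepatocyte and fibroblast lists, though not for the AT1 list, which summed to 1449 to 1745 FPKM against 1874 to 2277 in AT2-PBS, 2363 to 3487 in AT2-BLM and 2189.5 to 2579 in Atg5-/- AT2-BLM. Their 7 club and secretory genes summed to 25550.4 to 85552 FPKM against 4934 to 11883 in AT2-PBS, 877 to 4999 in AT2-BLM and 1327 to 2170.0 in Atg5-/- AT2-BLM. Their 10 macrophage and leukocyte genes summed to 370.4 to 379 FPKM, none of them at 0, against 6.54 to 27.3, 25.5 to 59.6 and 24.7 to 76.4 in the same 3 groups. Their 11 hepatocyte genes, all above 0, summed to 1976 to 3346 FPKM against 3.37 to 533, 247 to 769 and 172 to 1191, and AT2-PBS replicate 1 held the 533 FPKM while 8 of the 11 were at 0 in replicate 3. Fibroblast genes, a list of 6, summed to 89.7 to 101 FPKM against 3.49 to 12.8, 6.23 to 39.5 and 5.25 to 15.3. The islet gene Ins2 reached 1976 FPKM in AT2-PBS replicate 1 and 1949 and 2003 FPKM in Atg5-/- AT2-PBS replicates 1 and 2. Y-linked genes summed to at most 0.733 FPKM in 7 samples, although the methods name males, and to at least 14.2 FPKM in 5. By replicate, these sums were 0.121, 15.3 and 14.2 FPKM in AT2-PBS and 0.133, 0.0552 and 20.9 FPKM in AT2-BLM. They were 0.449, 0.733 and 0.507 FPKM in Atg5-/- AT2-PBS and 0.168, 14.2 and 18.3 FPKM in Atg5-/- AT2-BLM, so the groups were not balanced for them. Atg5 itself was read at 6.01 to 12.5 FPKM in AT2-PBS, 9.97 to 11.1 in AT2-BLM, 6.72 to 10.1 in Atg5-/- AT2-PBS and 8.37 to 8.84 in Atg5-/- AT2-BLM. Its change with Atg5 loss was -0.14 (SE 0.23) in PBS and -0.26 (SE 0.23) in BLM, neither called, so gene-level FPKM did not check the labels; which exon is deleted, and how the FPKM cover it, was not tested. No read counts were used, so depth is unknown beyond steps in low values that put the samples within 1 to 1.15 times of each other.

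**Figure D1:**
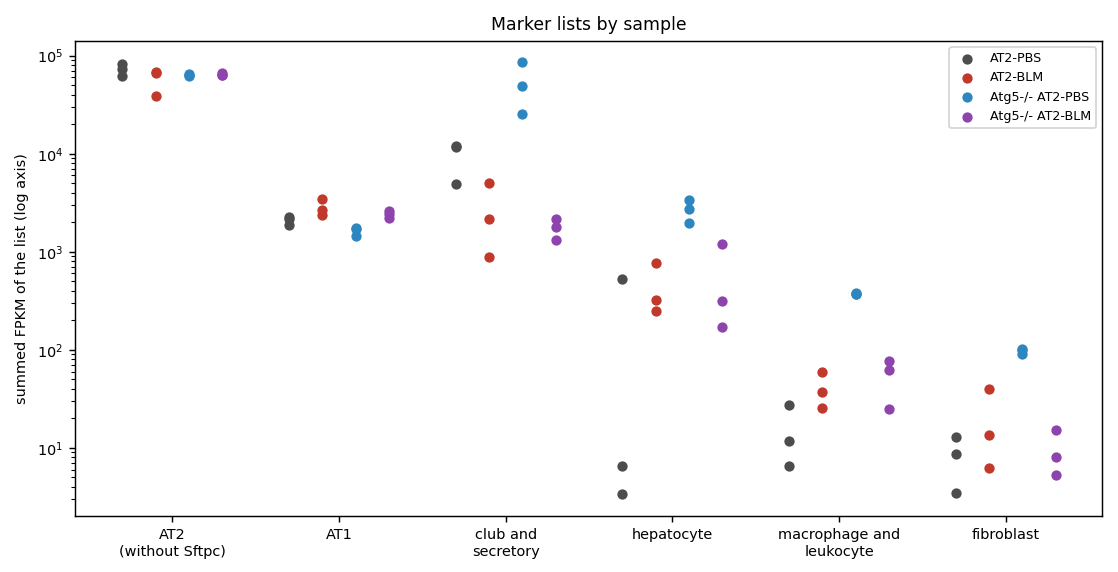
Summed FPKM of 6 lists of marker genes (log axis) in each sample, 1 point per sample, coloured by group. The 3 Atg5-/- AT2-PBS samples lie above all other samples for the club, hepatocyte, leukocyte and fibroblast lists, while the AT2 list without Sftpc overlaps between that group and the others.

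A few members made up most of each family's RNA. Mgst1, an enzyme of the endoplasmic reticulum and outer mitochondrial membrane, took 35.6 to 45.1% of the summed transferase FPKM, Gpx1 56.0 to 67.0% of the peroxidase FPKM and Prdx1 31.7 to 46.9% of the peroxiredoxin FPKM. Gpx4 with 26.1 to 34.2% and Prdx6 with 21.5 to 42.9% were next in their families. Summed peroxidase FPKM were 1462 ± 122 in AT2-PBS, 2637 ± 564 in AT2-BLM, 2101 ± 112 in Atg5-/- AT2-PBS and 2281 ± 579 in Atg5-/- AT2-BLM (mean ± SD, n = 3). Summed transferase FPKM were 1834 ± 121, 2113 ± 272, 2887 ± 188 and 1807 ± 103 in the same order, highest in Atg5-/- AT2-PBS. Summed peroxiredoxin FPKM were 1107 ± 134, 1839.6 ± 425, 1444 ± 147 and 1431 ± 229.9. In bulk RNA, fewer cells of a type and less RNA per cell cannot be told apart.

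The first comparison asks which members respond to BLM in cells with Atg5. All 4 selenium-type peroxidases, all 4 alpha transferases, Gsto1, Gstp1, Mgst3, 5 of 7 mu transferases and the peroxiredoxins Prdx3, Prdx4 and Prdx6 rose in AT2-BLM. Gpx8, Gstt1 and Mgst2 fell. The largest changes were those of Gsto1, 2.42 on the log2(FPKM + 1) scale, Gpx2, 2.24, Gsta2, 2.15, and Gsta1, 2.12, the last being 1.04 without AT2-BLM replicate 3. All changes here and below are on this scale, which understates low genes. Gsta1 passed the filter only through the 3 AT2-BLM samples. A gene is called at an unadjusted limma p under 0.05 and a fold of at least 1.4, the study's criterion, and 22 of 34 members were called, 19 higher and 3 lower, against 28.4% of all tested genes. With a Benjamini-Hochberg adjusted p under 0.05 there were 17, against 17.8% of all genes. The 3 values of AT2-BLM lay wholly above those of AT2-PBS in 22 members and wholly below in 6, against 40.2% of genes with groups apart in either direction. The median change was 0.58 over the members and 0.17 over all tested genes. Quantile normalization moved the latter to -0.02 and gave 15 higher and 5 lower members, and scaling to Cdh1 gave 9 higher and 4 lower. Cdh1 itself changed by 0.24 (SE 0.20) here. It changed by -0.39 with Atg5 loss in PBS, -0.17 with Atg5 loss in BLM and 0.46 with BLM in Atg5-/- AT2 (SE 0.20 each). None of these was called, but scaling to Cdh1 carries its shift into every gene. The calls of Gstm3, Gstm4, Gstp1 and Prdx4 were lost with quantile normalization (0.30, 0.35, 0.26 and 0.45) and with scaling to Cdh1 (0.52, 0.32, 0.30 and 0.44), which also ended those of Gpx1, Gpx3, Gpx4, Gsta4 (0.54), Gstm2 (0.61) and Mgst3 (1.03). Without AT2-BLM replicate 3, or without both it and AT2-PBS replicate 1, 17 members were called, all higher. In the same comparison 10 of 11 hepatocyte, 5 of 8 AT1 and 4 of 8 leukocyte markers tested were called higher and 3 of 6 club markers lower. Of 9 AT2 markers, 3 were called lower and 1 higher. The part of these markers in the result was not tested.

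**Figure D2:**
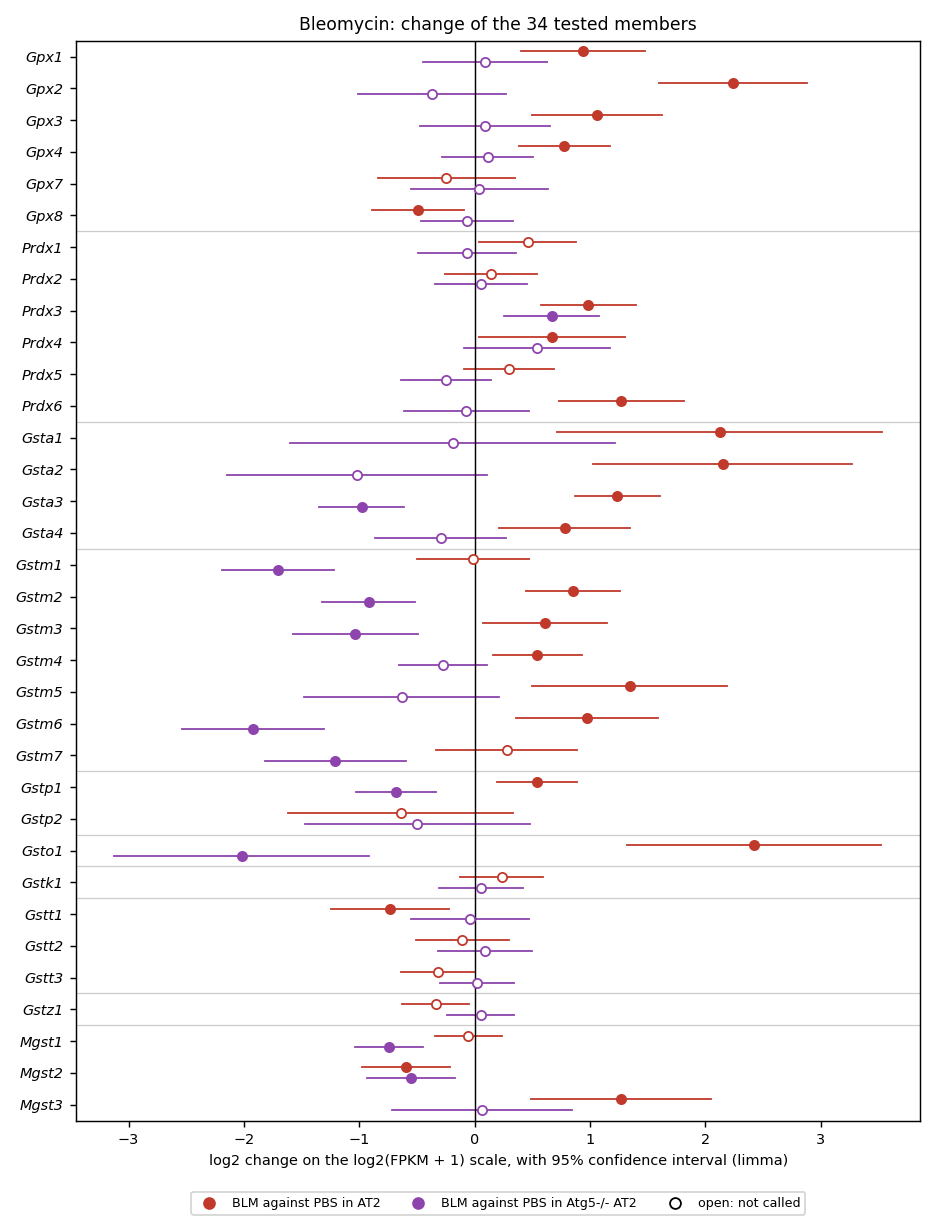
Change with BLM of the 34 tested members (log2 scale, lines are 95% confidence intervals from limma, filled points are called) in AT2 and in Atg5-/- AT2, with families separated by grey lines. The AT2 points of Gpx1 to Gpx4 lie above 0, and Gsto1 is called in opposite directions, at 2.42 in AT2 and -2.02 in Atg5-/- AT2.

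With PBS, Atg5-/- AT2 had more RNA of many transferases than AT2. All 7 mu transferases rose, as did Gsta2, Gsta3, Gsto1, Gstp1, Mgst1, the peroxidases Gpx1, Gpx2 and Gpx3 and the peroxiredoxins Prdx5 and Prdx6, and no member was called lower. Gsto1 changed by 3.15, Gstm6 by 2.08 and Gsta3 by 1.85. In all, 17 members were called against 19.3% of tested genes, and 12 with adjusted p against 11.2%. Groups were apart in 24 members, 21 above and 3 below, against 28.9% of genes, and the median change was 0.61 over members and 0.02 over all genes. Scaling to Cdh1 moved the latter to 0.34 with 18 members higher, and quantile normalization to -0.17 with 12 higher and 1 lower, the calls of Gsta2 (0.96), Gstm5 (0.66), Mgst1 (0.31), Prdx5 (0.41) and Prdx6 (0.47) being lost. This comparison shares the AT2-PBS samples with the one above. Beside it, all 6 tested club, 8 leukocyte, 5 fibroblast, 5 erythroid and 11 hepatocyte markers were called higher in the same samples. Of 9 AT2 markers, 3 were called lower and 1 higher, with a median change of -0.38. The part of these markers in the result was not tested.

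BLM in Atg5-/- AT2 was accompanied by lower transferase RNA. Gsta3, Gstm1, Gstm2, Gstm3, Gstm6, Gstm7, Gsto1, Gstp1, Mgst1 and Mgst2 fell against Atg5-/- AT2-PBS, and Prdx3 rose. Gsto1 changed by -2.02, Gstm6 by -1.92 and Gstm1 by -1.70, while none of the 6 tested peroxidases was called. The 11 members called stand against 18.4% of tested genes, and the 10 with adjusted p against 8.67%. Groups were apart in 1 member above and 10 below, against 24.9%, and the median change was -0.22 over members and 0.06 over all genes, which scaling to Cdh1 moved to -0.32 with 11 members lower and 0 higher. In the same comparison all 6 club, 8 leukocyte and 5 fibroblast markers tested fell and 8 of 11 hepatocyte markers fell, while 6 of 8 AT1 markers rose, and their part in the result was not tested.

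Between the 2 genotypes under BLM, fewer members were called, all of them lower without Atg5. Gpx2, Gsta1, Gsta2, Gsta4, Gstm5, Gstm6, Gsto1 and Prdx6 met the criterion and were lower in Atg5-/- AT2-BLM than in AT2-BLM, 8 members against 5.16% of tested genes. By limma's adjusted p there were 0 members, against 0.00937% of genes. An unadjusted limma p under 0.05 was found in 11 members and in 841 of all 10675 tested genes. Groups were apart in 1 member above and 7 below, against 13.4% of genes, and the median change was -0.22 over members and -0.05 over all genes. Only 3 members were called without AT2-BLM replicate 3, 5 without Atg5-/- AT2-BLM replicate 1, 4 without Atg5-/- AT2-BLM replicate 3 and 1 with scaling to Cdh1, and no member of this comparison kept its call under every alternative. Beside it, 2 of 8 AT1 markers were called lower and the median change of that list was -0.53; their part in the result was not tested.

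**Figure D3:**
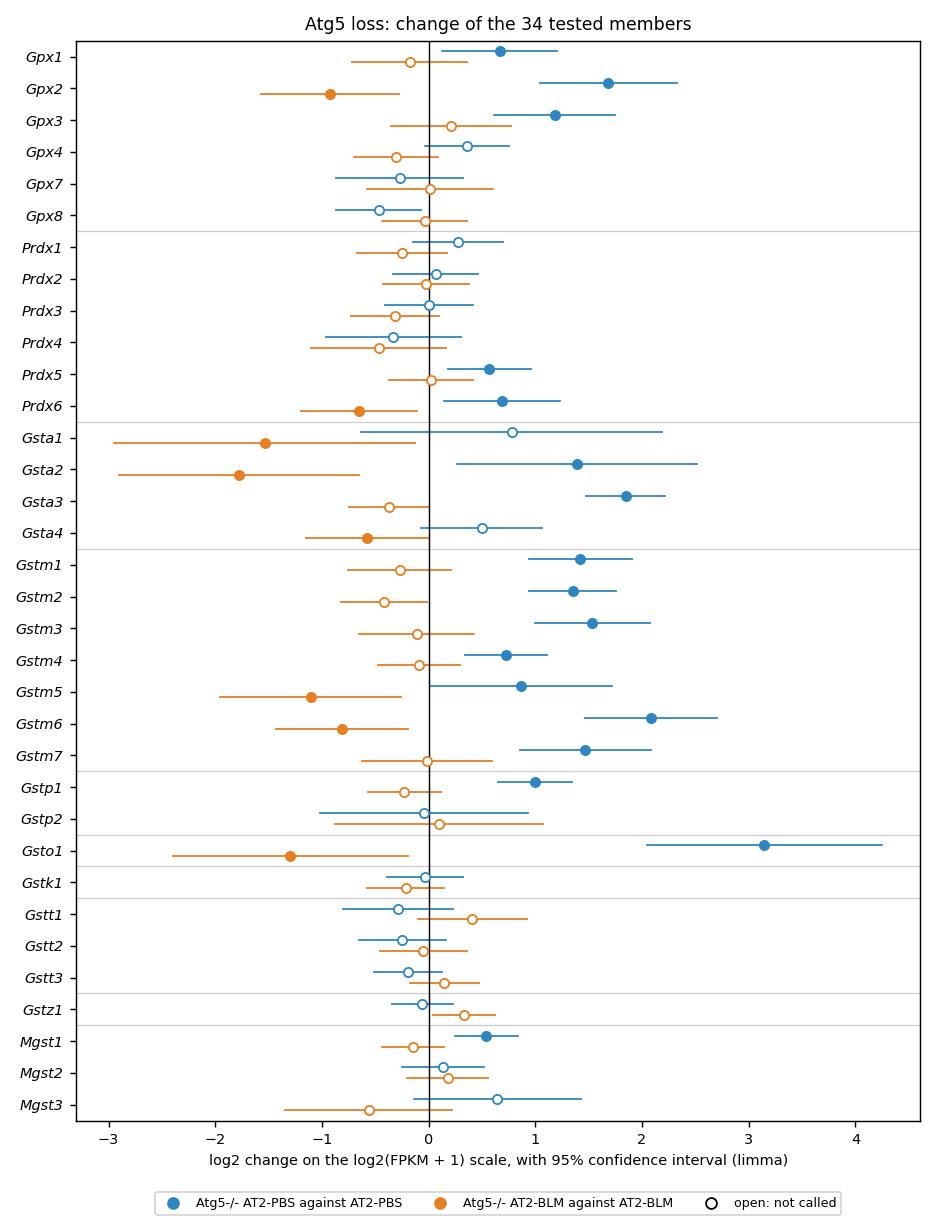
Change of the 34 tested members in Atg5-/- AT2 against AT2 with PBS and with BLM (log2 scale, lines are 95% confidence intervals from limma, filled points are called), with families separated by grey lines. With PBS the mu transferases lie above 0, up to 2.08 for Gstm6, and with BLM the called members lie below 0, down to -1.78 for Gsta2.

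The difference between the BLM effects of the 2 genotypes, taken as an interaction in the same fit, was negative in each member called. It was called in 20 of 34 members, against 20.2% of tested genes, and in 13 by adjusted p, against 7.89%. These 13 were Gpx2, Gsta2, Gsta3, Gstm1, Gstm2, Gstm3, Gstm5, Gstm6, Gstm7, Gsto1, Gstp1, Mgst1 and Prdx6. The other 7 were Gpx1 (-0.85), Gpx3 (-0.97), Gpx4 (-0.66), Gsta1 (-2.32), Gsta4 (-1.08), Gstm4 (-0.82) and Mgst3 (-1.20). Of their calls, that of Gpx1 was lost in 12 of 22 alternatives, Mgst3 in 11, Gpx4 in 10 and Gpx3 in 8, among them leaving out Atg5-/- AT2-BLM replicate 1 (-0.56, -0.77, -0.57 and -0.76) and, for the first 3 of these, AT2-BLM replicate 3 (-0.65, -0.85 and -0.52). That of Gsta1 was lost in 4 of 23, its value being -1.24 without AT2-BLM replicate 3. The call was kept in every alternative in 12 of the 20. The median was -0.83 over members and -0.09 over all genes. Quantile normalization moved the latter to 0.15 and gave 15 lower and 4 higher members. The Atg5-/- AT2-PBS samples enter this difference, and among their markers all 8 leukocyte, 5 fibroblast and 11 hepatocyte genes tested also had a called negative interaction. Of 9 AT2 markers, 4 had a called positive and 1 a called negative interaction. The part of these markers in the result was not tested.

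Among the selenium-type peroxidases, whose TGA codons are shown above, Gpx1 reduces hydrogen peroxide in cytosol and mitochondria and was read at 841, 752 and 903 FPKM in AT2-PBS, 1345, 1436 and 2084 FPKM in AT2-BLM, 1284, 1381 and 1295 FPKM in Atg5-/- AT2-PBS and 940.2, 1848 and 1598 FPKM in Atg5-/- AT2-BLM. All 3 AT2-BLM and all 3 Atg5-/- AT2-PBS values lay above those of AT2-PBS. The changes were 0.94 (SE 0.25, adjusted p = 0.0242) with BLM and 0.67 (SE 0.25, adjusted p = 0.123) with Atg5 loss in PBS. Gpx2, a peroxidase of epithelia, was read at 16.2, 13.2 and 18.1 FPKM in AT2-PBS, 62.1, 61.9 and 123 FPKM in AT2-BLM, 61.9, 64.8 and 36.4 FPKM in Atg5-/- AT2-PBS and 30.8, 49.9999 and 43.3 FPKM in Atg5-/- AT2-BLM. It had the largest change of the family, with each of the other groups above AT2-PBS and AT2-BLM above Atg5-/- AT2-BLM. It changed by 2.24 (SE 0.30, adjusted p = 0.00109) with BLM in AT2, by 1.68 (SE 0.30, adjusted p = 0.00207) with Atg5 loss in PBS and by -0.92 (SE 0.30, adjusted p = 0.607) with Atg5 loss in BLM, and the interaction was -2.61 (SE 0.42, adjusted p = 0.00374). Gpx3, a secreted form, was read at 7.85, 13.4 and 10.6 FPKM in AT2-PBS, 21.5, 27.3 and 20.1 FPKM in AT2-BLM, 26.4, 32.7 and 17.6 FPKM in Atg5-/- AT2-PBS and 19.5, 31.3 and 30.2 FPKM in Atg5-/- AT2-BLM. AT2-PBS was below the other 3 groups, which overlapped. The changes were 1.06 (SE 0.26, adjusted p = 0.0177) with BLM and 1.18 (SE 0.26, adjusted p = 0.00892) with Atg5 loss in PBS. Gpx4 reduces lipid hydroperoxides within membranes and was read at 469, 423 and 515 FPKM in AT2-PBS, 718, 729.6 and 986 FPKM in AT2-BLM, 650.4, 636 and 520.4 FPKM in Atg5-/- AT2-PBS and 566, 776 and 623 FPKM in Atg5-/- AT2-BLM. AT2-BLM lay wholly above AT2-PBS, with a change of 0.78 (SE 0.18, adjusted p = 0.0144). Atg5-/- AT2-PBS also lay above AT2-PBS, but the change of 0.36 (SE 0.18, adjusted p = 0.276) was not called. Without Atg5-/- AT2-PBS replicate 2, and also without AT2-PBS replicate 2, the Gpx1 change with Atg5 loss was 0.64 and 0.60 and not called, and with scaling to Cdh1 the BLM changes of Gpx1, Gpx3 and Gpx4 were 0.70, 0.83 and 0.54 and not called. The difference of Gpx2 under BLM was -0.60 without AT2-BLM replicate 3, and its call was lost with both AT2-PBS replicate 1 and AT2-BLM replicate 3 left out, at -0.60.

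The peroxidases with a cysteine codon, Gpx7 and Gpx8, both of the endoplasmic reticulum, did not rise in any comparison. Gpx8 stood at 119 ± 8.63 FPKM in AT2-PBS, 86.4 ± 21.3 in AT2-BLM, 86.4 ± 11.1 in Atg5-/- AT2-PBS and 82.3 ± 6.21 in Atg5-/- AT2-BLM (mean ± SD, n = 3). AT2-PBS was wholly above the 2 groups compared with it. Gpx8 fell with BLM, with a change of -0.49 (SE 0.18, adjusted p = 0.083), a call lost without AT2-BLM replicate 3 (-0.27) or AT2-PBS replicate 2 (-0.45) or 3 (-0.47). Gpx7 stood at 14.99 ± 2.72, 12.5 ± 2.26, 12.2 ± 2.03 and 13.3 ± 6.07 FPKM in the same order, with overlapping groups and a BLM change of -0.25 (95% confidence interval -0.84 to 0.35).

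**Figure D4:**
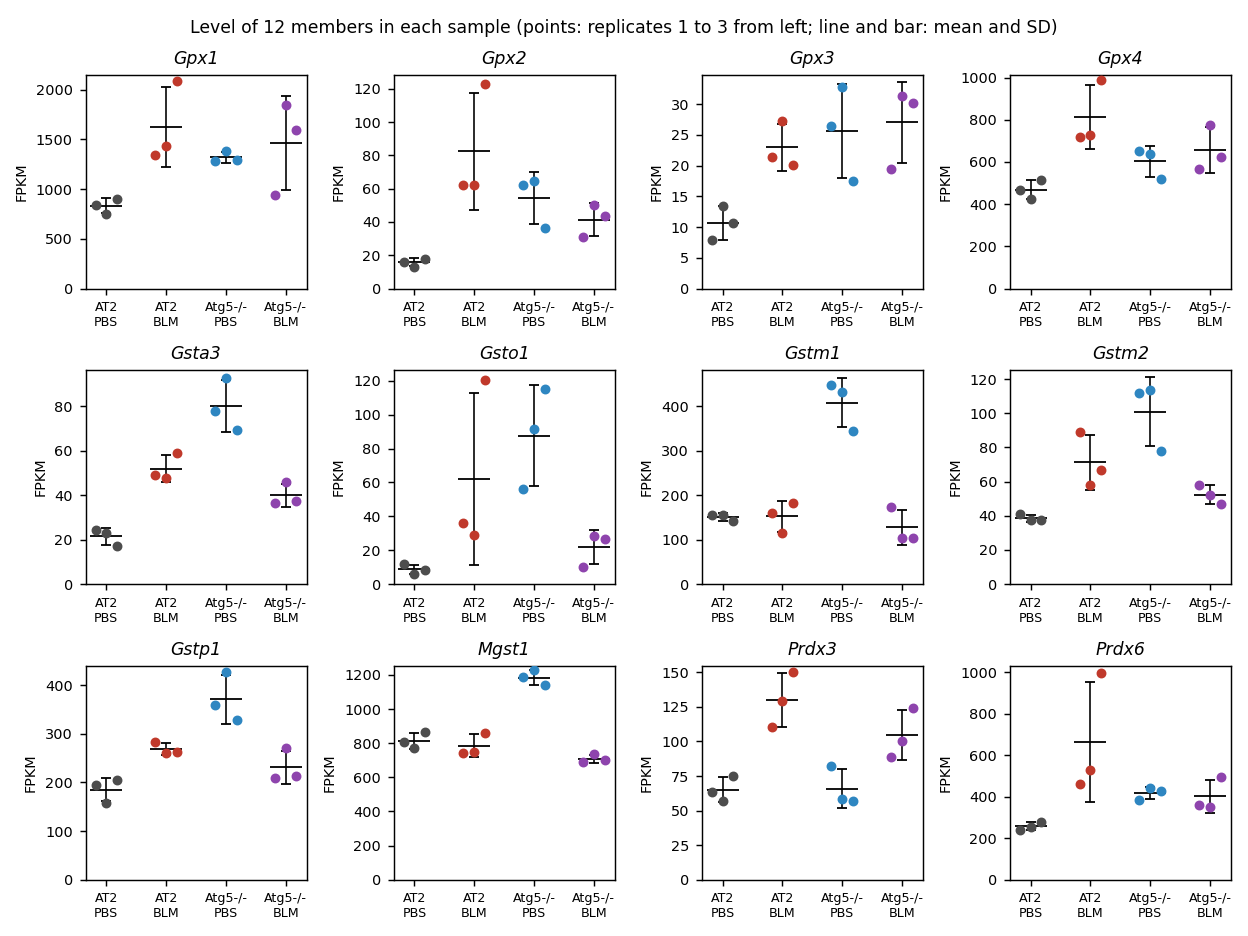
FPKM of 12 members in each sample (points are replicates 1 to 3 from left, line and bar are mean and SD of 3 samples), each panel from 0. AT2-PBS lies below all other groups for Gpx1 to Gpx4, Gsta3, Gstm2, Gstp1 and Prdx6, whereas Gstm1 and Mgst1 are high in Atg5-/- AT2-PBS alone of the 4 groups.

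Among the peroxiredoxins, cytosolic Prdx1 was the most abundant by its mean over the 12 samples and was read at 522, 388 and 562 FPKM in AT2-PBS, 584, 691 and 734 FPKM in AT2-BLM, 608, 659.8 and 502 FPKM in Atg5-/- AT2-PBS and 456, 611 and 634 FPKM in Atg5-/- AT2-BLM. AT2-BLM lay above AT2-PBS, and the change of 0.46 (SE 0.19, adjusted p = 0.12) did not reach the fold of 1.4. Mitochondrial Prdx3 was read at 63.6, 56.9 and 74.7 FPKM in AT2-PBS, 111, 129 and 150.0 FPKM in AT2-BLM, 81.9, 58.3 and 56.7 FPKM in Atg5-/- AT2-PBS and 89.1, 100.3 and 124 FPKM in Atg5-/- AT2-BLM. BLM samples were wholly above PBS samples in both genotypes. Prdx3 rose by 0.99 (SE 0.19, adjusted p = 0.00615) in AT2 and by 0.67 (SE 0.19, adjusted p = 0.0479) in Atg5-/- AT2. It was the only member called higher with BLM in the latter. Scaling to Cdh1 gave 0.21 and no call there, but Cdh1 itself changed by 0.46 (SE 0.20) in that comparison. Prdx6, which joins peroxidase and phospholipase activity, was read at 239, 256 and 280.3 FPKM in AT2-PBS, 463, 531 and 994 FPKM in AT2-BLM, 385, 439.9 and 428 FPKM in Atg5-/- AT2-PBS and 358, 353 and 494 FPKM in Atg5-/- AT2-BLM. AT2-PBS was below the other groups and AT2-BLM replicate 3 was the highest sample. It rose by 1.27 (SE 0.25, adjusted p = 0.00676) with BLM and by 0.69 (SE 0.25, adjusted p = 0.113) with Atg5 loss in PBS, differed by -0.65 (SE 0.25, adjusted p = 0.618) with Atg5 loss in BLM and had an interaction of -1.34 (SE 0.35, adjusted p = 0.0367). The difference of Prdx6 under BLM was -0.32 when AT2-BLM replicate 3 was left out, and without Atg5-/- AT2-BLM replicate 1 or 2 it was -0.58 or -0.57, not called.

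The remaining peroxiredoxins moved less. Prdx4, of the secretory pathway, met the criterion with BLM in AT2, at 0.67 (SE 0.29, adjusted p = 0.126). That call was lost when any 1 of AT2-PBS replicates 1 and 2 and AT2-BLM replicates 2 and 3 was left out, with changes of 0.61, 0.65, 0.73 and 0.44. Prdx5, found in mitochondria and peroxisomes, met it with Atg5 loss in PBS, at 0.57 (SE 0.18, adjusted p = 0.0672), but not without Atg5-/- AT2-PBS replicate 2 (0.44) or AT2-PBS replicate 2 (0.48). Prdx2, another cytosolic form, had means of 59.5 to 66.6 FPKM over the 4 groups and a BLM change in AT2 of 0.15 (95% confidence interval -0.25 to 0.54).

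Alpha transferases act on lipid peroxidation products and other electrophiles. Gsta3 was read at 24.5, 23.1 and 17.2 FPKM in AT2-PBS, 49.3, 47.8 and 58.8 FPKM in AT2-BLM, 77.9, 92.6 and 69.4 FPKM in Atg5-/- AT2-PBS and 36.7, 45.9 and 37.4 FPKM in Atg5-/- AT2-BLM. The groups were apart in each pairwise comparison, with AT2-PBS lowest and Atg5-/- AT2-PBS highest. Gsta3 rose by 1.24 (SE 0.17, adjusted p = 0.00121) with BLM and by 1.85 (SE 0.17, adjusted p = 3.73e-05) with Atg5 loss in PBS, fell with BLM in Atg5-/- AT2, at -0.98 (SE 0.17, adjusted p = 0.00387), and had an interaction of -2.22 (SE 0.24, adjusted p = 0.000822). Each of these calls was kept in every alternative. Gsta1 was read at 0.156, 0 and 0.226 FPKM in AT2-PBS, 1.32, 1.31 and 20.9 FPKM in AT2-BLM, 0.893, 0.894 and 0.992 FPKM in Atg5-/- AT2-PBS and 0.358, 0.824 and 0.938 FPKM in Atg5-/- AT2-BLM. AT2-BLM replicate 3 was far above the other 11 samples. The BLM change was 2.12 (SE 0.65, adjusted p = 0.0417) and, without that sample, 1.04, which met the criterion. Gsta1 reached 1 FPKM only in the 3 AT2-BLM samples and passed the filter through them alone. The filter was not redone without replicate 3, and the calls of Gsta1 as higher in AT2-BLM are not independent of that filter. Its near copy Gsta2 was read at 0.330, 0.127 and 0.190 FPKM in AT2-PBS, 3.36, 2.85 and 8.32 FPKM in AT2-BLM, 2.99, 4.79 and 0.388 FPKM in Atg5-/- AT2-PBS and 0.180, 1.91 and 0.122 FPKM in Atg5-/- AT2-BLM. Within Atg5-/- AT2-PBS it was lowest in replicate 3. Gsta2 rose by 2.15 (SE 0.52, adjusted p = 0.0166) with BLM and by 1.39 (SE 0.52, adjusted p = 0.124) with Atg5 loss in PBS, was lower with Atg5 loss in BLM, at -1.78 (SE 0.52, adjusted p = 0.607), and had an interaction of -3.17 (SE 0.73, adjusted p = 0.0204). The sum of Gsta1 and Gsta2 changed by 2.85 (SE 0.60, adjusted p = 0.00961) with BLM. Summing lessens but does not remove the dependence on how reads were divided, since each FPKM is scaled to its own transcript length. Both genes were highest in AT2-BLM replicate 3, and the sum was not fitted without that sample. The Gsta2 change in PBS was not called without Atg5-/- AT2-PBS replicate 1 (1.23) or 2 (0.96).

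Gsta4, which prefers hydroxynonenal, was the most abundant alpha transferase, at 120.3 ± 27.5 FPKM in AT2-PBS, 215 ± 91.3 in AT2-BLM, 168 ± 19.1 in Atg5-/- AT2-PBS and 137 ± 20.03 in Atg5-/- AT2-BLM (mean ± SD, n = 3). It rose by 0.78 (SE 0.26, adjusted p = 0.0579) with BLM. Its difference under BLM between genotypes was -0.58 (SE 0.26, adjusted p = 0.621). The BLM call was lost without AT2-PBS replicate 2 (0.59) or AT2-BLM replicate 3 (0.45), and the difference between genotypes was -0.25 without the latter, -0.46 without Atg5-/- AT2-BLM replicate 1 and -0.60 without replicate 3, not called. For Gsta1 that difference was -1.54 (SE 0.65, adjusted p = 0.621), and it was -0.46 without AT2-BLM replicate 3 and not called, nor was it called without any 1 of the 3 Atg5-/- AT2-BLM samples (-1.38, -1.59 and -1.64).

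The mu transferases, the chromosome 3 cluster, conjugate a wide range of electrophiles. Gstm1 was read at 156, 155 and 141 FPKM in AT2-PBS, 159.8, 114 and 183 FPKM in AT2-BLM, 447, 430.4 and 345 FPKM in Atg5-/- AT2-PBS and 174, 104 and 104 FPKM in Atg5-/- AT2-BLM. The 3 Atg5-/- AT2-PBS samples were above all others, and AT2-BLM overlapped AT2-PBS. Its change was 1.42 (SE 0.22, adjusted p = 0.000927) with Atg5 loss in PBS and -1.70 (SE 0.22, adjusted p = 0.000718) with BLM in Atg5-/- AT2, against -0.01 with BLM in AT2 (95% confidence interval -0.50 to 0.47), and the interaction was -1.69 (SE 0.31, adjusted p = 0.00751). Gstm2 was read at 40.9, 37.3 and 37.3 FPKM in AT2-PBS, 89.3, 58.00 and 66.7 FPKM in AT2-BLM, 112, 113 and 77.9 FPKM in Atg5-/- AT2-PBS and 58.2, 52.2 and 46.8 FPKM in Atg5-/- AT2-BLM. AT2-PBS was below each of the other groups. It rose by 0.85 (SE 0.19, adjusted p = 0.0114) with BLM and by 1.35 (SE 0.19, adjusted p = 0.000406) with Atg5 loss in PBS, and fell with BLM in Atg5-/- AT2, at -0.92 (SE 0.19, adjusted p = 0.00921). The sum of Gstm1 and Gstm2 had a BLM change in AT2 of 0.22 (SE 0.20, adjusted p = 0.462), which was not called. Gstm4 was read at 5.71, 6.34 and 7.80 FPKM in AT2-PBS, 10.7, 10.4 and 9.05 FPKM in AT2-BLM, 14.2, 10.6 and 10.1 FPKM in Atg5-/- AT2-PBS and 9.24, 10.8 and 8.16 FPKM in Atg5-/- AT2-BLM. Its lowest group was AT2-PBS. It rose by 0.54 (SE 0.18, adjusted p = 0.0514) with BLM and by 0.72 (SE 0.18, adjusted p = 0.0167) with Atg5 loss in PBS, and the former was 0.46 and not called without AT2-PBS replicate 1.

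The other mu genes were low, at most 7.58 FPKM in any sample. Gstm5 was read at 1.72, 1.28 and 1.35 FPKM in AT2-PBS, 3.79, 4.84 and 7.58 FPKM in AT2-BLM, 3.73, 4.58 and 2.38 FPKM in Atg5-/- AT2-PBS and 1.20, 4.98 and 0.824 FPKM in Atg5-/- AT2-BLM. Atg5-/- AT2-BLM replicate 2 was far above the other samples of its group. Gstm5 rose by 1.35 (SE 0.39, adjusted p = 0.0341) with BLM, and its change of 0.87 (SE 0.39, adjusted p = 0.209) with Atg5 loss in PBS was not called when any 1 of AT2-PBS replicates 1 (0.95), 2 (0.82) and 3 (0.84) or Atg5-/- AT2-PBS replicates 1 (0.83) and 2 (0.71) was left out. Gstm6 was read at 0.807, 0 and 0 FPKM in AT2-PBS, 2.19, 1.36 and 0.817 FPKM in AT2-BLM, 3.98, 4.88 and 3.69 FPKM in Atg5-/- AT2-PBS and 0.338, 0.741 and 0.0854 FPKM in Atg5-/- AT2-BLM. The Atg5-/- AT2-PBS samples were the 3 highest. It rose by 0.97 (SE 0.28, adjusted p = 0.0348) with BLM and by 2.08 (SE 0.28, adjusted p = 0.000365) with Atg5 loss in PBS, fell with BLM in Atg5-/- AT2, at -1.92 (SE 0.28, adjusted p = 0.00127) and had an interaction of -2.90 (SE 0.40, adjusted p = 0.00194). Under BLM its difference between genotypes was -0.81 (SE 0.28, adjusted p = 0.618), and it was -0.60 when AT2-BLM replicate 1 and -0.65 when Atg5-/- AT2-BLM replicate 3 was left out, not called. For Gstm5 that difference was -1.11 (SE 0.39, adjusted p = 0.618), and it was not called without Atg5-/- AT2-BLM replicate 1 (-0.91) or 3 (-0.78), nor without AT2-BLM replicate 3 (-0.87).

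Gstm3 and Gstm7 were highest in Atg5-/- AT2-PBS. Gstm3 was read at 0.366, 0.0505 and 0.0548 FPKM in AT2-PBS, 1.20, 0.682 and 0.460 FPKM in AT2-BLM, 1.72, 3.35 and 2.11 FPKM in Atg5-/- AT2-PBS and 0.379, 1.18 and 0.432 FPKM in Atg5-/- AT2-BLM. Gstm7 was read at 0.654, 0.0443 and 0.0953 FPKM in AT2-PBS, 0.811, 0.285 and 0.452 FPKM in AT2-BLM, 1.79, 2.37 and 3.27 FPKM in Atg5-/- AT2-PBS and 0.377, 1.18 and 0.0852 FPKM in Atg5-/- AT2-BLM. In both genes the Atg5-/- AT2-PBS samples lay above the other 9, and AT2-PBS replicate 1 was the highest of its group. Gstm3 reached 1 FPKM in 5 samples, Gstm6 in 5 and Gstm7 in 4, so none of them would pass the filter without the Atg5-/- AT2-PBS samples. With Atg5 loss in PBS, Gstm3 rose by 1.54 (SE 0.25, adjusted p = 0.00115) and Gstm7 by 1.47 (SE 0.28, adjusted p = 0.00357). With BLM in Atg5-/- AT2 they fell, with changes of -1.03 (SE 0.25, adjusted p = 0.0219) and -1.21 (SE 0.28, adjusted p = 0.0187). With BLM in AT2, Gstm3 changed by 0.61 (SE 0.25, adjusted p = 0.105), a call lost without AT2-PBS replicate 2 (0.55), AT2-PBS replicate 3 (0.55) or AT2-BLM replicate 1 (0.45), and Gstm7 by 0.28 (95% confidence interval -0.33 to 0.89), not called. The same call of Gstm3 was also lost with the Y-linked sum as a covariate. The sum of Gstm3, Gstm6 and Gstm7 changed by 2.71 (SE 0.41, adjusted p = 0.000759) with Atg5 loss in PBS and by -2.06 (SE 0.41, adjusted p = 0.00861) with BLM in Atg5-/- AT2.

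Of the omega and pi classes, Gsto1, which reduces dehydroascorbate and removes glutathione from proteins, was read at 11.7, 6.27 and 8.52 FPKM in AT2-PBS, 35.9, 29.3 and 121 FPKM in AT2-BLM, 55.9, 91.6 and 115 FPKM in Atg5-/- AT2-PBS and 10.3, 28.5 and 26.4 FPKM in Atg5-/- AT2-BLM. AT2-PBS was the lowest group by mean and AT2-BLM replicate 3 the highest sample. Gsto1 changed by 2.42 (SE 0.51, adjusted p = 0.00895) with BLM, by 3.15 (SE 0.51, adjusted p = 0.00114) with Atg5 loss in PBS and by -2.02 (SE 0.51, adjusted p = 0.0269) with BLM in Atg5-/- AT2, and its interaction of -4.44 (SE 0.72, adjusted p = 0.00376) was the largest of all members. Those 4 calls were kept in every alternative. Its difference under BLM was -1.30 (SE 0.51, adjusted p = 0.619) and was not called without Atg5-/- AT2-BLM replicate 1 (-0.85) or AT2-BLM replicate 3 (-0.68). Gstp1, the abundant pi form, was read at 195, 158 and 204 FPKM in AT2-PBS, 283, 262 and 263 FPKM in AT2-BLM, 359, 427 and 328 FPKM in Atg5-/- AT2-PBS and 209.6, 271 and 213 FPKM in Atg5-/- AT2-BLM. AT2-PBS was below the other groups and Atg5-/- AT2-PBS above them. It changed by 0.54 (SE 0.16, adjusted p = 0.0359) with BLM, 0.997 (SE 0.16, adjusted p = 0.00104) with Atg5 loss in PBS and -0.68 (SE 0.16, adjusted p = 0.0187) with BLM in Atg5-/- AT2, and the first was 0.43 without AT2-PBS replicate 2, 0.37 with median-ratio scaling, 0.30 with scaling to Cdh1 and 0.26 with quantile normalization, each not called. Gstp2 had means of 0.717 to 1.87 FPKM over the 4 groups and was not called in any comparison, with a BLM change of -0.64 (95% confidence interval -1.61 to 0.34).

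Theta, zeta and kappa transferases moved little or down with BLM in AT2. Gstt1, which handles small halogenated compounds, was read at 144, 150.2 and 161 FPKM in AT2-PBS, 119, 112 and 55.6 FPKM in AT2-BLM, 128, 125 and 118 FPKM in Atg5-/- AT2-PBS and 135, 123 and 106 FPKM in Atg5-/- AT2-BLM. AT2-BLM was wholly below AT2-PBS, with replicate 3 lowest. The change of -0.73 (SE 0.24, adjusted p = 0.0498) was -0.39 without AT2-BLM replicate 3 and not called. Gstt3 with -0.32 (95% confidence interval -0.64 to 0.00) and Gstt2 with -0.11 (-0.51 to 0.30) were not called with BLM, and the sum of the theta genes changed by -0.49 (SE 0.16, adjusted p = 0.0502). Gstz1, the maleylacetoacetate isomerase of tyrosine breakdown, changed by -0.34 (-0.63 to -0.05) and Gstk1, of mitochondria and peroxisomes, by 0.23 (-0.13 to 0.60). With quantile normalization or median-ratio scaling Gstt3 was called lower with BLM, at -0.54 or -0.49, as was Gstz1, at -0.56 or -0.51. None of these 5 genes was called in any other pairwise comparison. With Atg5 loss in BLM, Gstz1 lay wholly above, at 0.33 (SE 0.13, adjusted p = 0.62). In the same comparison Gstt1 changed by 0.41, Gstt2 by -0.05, Gstt3 by 0.15 and Gstk1 by -0.21. The interaction of the theta sum, 0.49 (SE 0.22, adjusted p = 0.233), met the criterion. Those of Gstt1 (0.70), Gstt2 (0.20), Gstt3 (0.34), Gstz1 (0.39) and Gstk1 (-0.18) were not called.

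The microsomal family split by member. Mgst1, the most abundant transferase, was read at 808, 769 and 864 FPKM in AT2-PBS, 744, 747 and 862 FPKM in AT2-BLM, 1185, 1227 and 1139.8 FPKM in Atg5-/- AT2-PBS and 689, 734 and 700.2 FPKM in Atg5-/- AT2-BLM. Atg5-/- AT2-PBS lay above the 3 other groups. It changed by 0.54 (SE 0.13, adjusted p = 0.0186) with Atg5 loss in PBS and -0.74 (SE 0.13, adjusted p = 0.00467) with BLM in Atg5-/- AT2, against -0.05 with BLM in AT2 (95% confidence interval -0.35 to 0.24), and the interaction was -0.69 (SE 0.19, adjusted p = 0.0464). With quantile normalization the first of these was 0.31 and the interaction -0.31, and neither was called. Mgst2, which like Mgst3 can make cysteinyl leukotrienes, was read at 1.37, 1.58 and 1.12 FPKM in AT2-PBS, 0.774, 0.627 and 0.312 FPKM in AT2-BLM, 1.71, 1.75 and 1.31 FPKM in Atg5-/- AT2-PBS and 0.941, 0.794 and 0.577 FPKM in Atg5-/- AT2-BLM. BLM samples were below PBS samples in both genotypes. The changes were -0.59 (SE 0.17, adjusted p = 0.0369) in AT2 and -0.55 (SE 0.17, adjusted p = 0.0768) in Atg5-/- AT2, and the call was lost without AT2-BLM replicate 3 (-0.47) in the first and without Atg5-/- AT2-BLM replicate 3 (-0.47) in the second. The second call was also lost with quantile normalization and with the Y-linked sum as a covariate. Mgst3 was read at 47.3, 37.5 and 44.2 FPKM in AT2-PBS, 75.8, 87.97 and 171 FPKM in AT2-BLM, 71.9, 74.9 and 56.9 FPKM in Atg5-/- AT2-PBS and 38.3, 112 and 81.5 FPKM in Atg5-/- AT2-BLM. AT2-BLM was above AT2-PBS and highest in replicate 3. The change was 1.27 (SE 0.36, adjusted p = 0.0319), and with scaling to Cdh1 it was 1.03 and not called.

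Genes that make, recycle or support glutathione and thioredoxin were counted from lists chosen by function. Of 13 tested genes of glutathione synthesis, uptake and recycling, 5 rose and 2 fell with BLM in AT2, with a median change of 0.51, against 28.4% of all tested genes called and a median of 0.17. The glutathione synthetase Gss changed by 1.17 (SE 0.25, adjusted p = 0.00944), the reductase Gsr by 0.89 (SE 0.20, adjusted p = 0.0132), the peptidase Lap3 by 0.99 (SE 0.19, adjusted p = 0.00662), the exporter Abcc1 by 0.95 (SE 0.28, adjusted p = 0.0377) and Chac2, which degrades glutathione, by 0.65 (SE 0.27, adjusted p = 0.115). The falling genes were the peptidase Anpep, at -2.001 (SE 0.26, adjusted p = 0.00109), and Ggt5, at -1.03 (SE 0.42, adjusted p = 0.108). Among the genes not called were the synthesis genes Gclc, at 0.15 (SE 0.68), and Gclm, at 0.24 (SE 0.53), both with a wide spread. With Atg5 loss in PBS, Abcc1, Gsr and Lap3 rose (0.74, 0.61 and 0.62) and Anpep fell (-0.96). With Atg5 loss in BLM, Gss was lower (-0.69) and Anpep and Ggct were higher (0.93 and 0.69), each without an adjusted p under 0.05. None of the 13 was called with BLM in Atg5-/- AT2, against 18.4% of all tested genes.

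The thioredoxin system, which recharges peroxiredoxins, had 14 genes tested, of which 5 rose and 1 fell with BLM in AT2, again against 28.4% of all genes, and the median of 0.23 was near the 0.17 over all genes. Srxn1, the sulfiredoxin that repairs over-oxidized peroxiredoxins, was read at 34.3, 15.7 and 17.5 FPKM in AT2-PBS, 59.2, 69.3 and 163 FPKM in AT2-BLM, 39.05, 35.5 and 26.7 FPKM in Atg5-/- AT2-PBS and 35.7, 33.2 and 39.4 FPKM in Atg5-/- AT2-BLM. Each AT2-BLM value lay above all other samples. It had the largest change of the list, 1.998 (SE 0.36, adjusted p = 0.00429), with an interaction of -1.89 (SE 0.50, adjusted p = 0.0396). Sesn2 rose by 1.12, the cytosolic reductase Txnrd1 by 1.02, and the glutaredoxins Glrx3 and Glrx by 0.79 and 0.60, while Txnrd3 changed by -1.16. With Atg5 loss, Txnip, an inhibitor of thioredoxin, was higher in PBS (0.94) and in BLM (0.74), Txnrd3 was lower in PBS (-0.63), and Srxn1 (-1.26) and Sesn2 (-0.66) were lower in BLM. With BLM in Atg5-/- AT2 the 1 gene called was Glrx (0.60), against 18.4% of all tested genes.

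Of 4 superoxide dismutase and catalase genes, mitochondrial Sod2 and extracellular Sod3 rose with BLM in AT2 (1.19 and 1.77) and with Atg5 loss in PBS (0.54 and 1.95), and Cat fell with BLM (-0.61). Of 6 genes of NADPH supply, G6pdx, Pgd and Me1 rose with BLM in AT2 (1.06, 0.76 and 0.62), G6pdx was lower with Atg5 loss in BLM (-0.65) and Me1 rose with BLM in Atg5-/- AT2 (0.75). Of 8 genes listed for selenocysteine incorporation, 1 was called in any of the pairwise comparisons, the seryl-tRNA synthetase Sars, which is not specific to selenocysteine. It rose with BLM in AT2, at 0.71 (SE 0.13, adjusted p = 0.00543). The median BLM change of this list was 0.14, below the 0.17 over all genes. Over all tested genes, 28.4% were called with BLM in AT2 and 18.4% with BLM in Atg5-/- AT2. The shares with Atg5 loss were 19.3% in PBS and 5.16% in BLM.

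Of 8 tested glutathione-binding relatives outside the rule, Ptges, Ptges2, Clic1 and Alox5ap rose with BLM in AT2 (1.18, 0.59, 0.83 and 1.09). Over all tested genes, 28.4% were called in that comparison. Alox5ap and Ltc4s, which serve leukotriene synthesis in leukocytes, rose with Atg5 loss in PBS by 4.58 (SE 0.42, adjusted p = 3.73e-05) and 4.02 (SE 0.53, adjusted p = 0.000301) and fell with BLM in Atg5-/- AT2 (-2.50 and -3.59), in the samples where the leukocyte markers above were highest. Ptges, a prostaglandin E synthase, rose with BLM in Atg5-/- AT2 too (1.23), and Alox5ap was higher with Atg5 loss in BLM (0.996).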

How the data were processed

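RNA was measured in 12 samples, 3 in each of 4 groups, and nothing in the labels says that replicates are separate animals, so p-values measure only the spread between these samples. The authors trimmed reads, aligned them to mm9 and deposited FPKM values per gene from Cufflinks. Their methods name STAR, while the submitters' processing notes name Trimmomatic 0.36, HISAT2 2.2.1.0, HTSeq 0.9.1 and Cufflinks 2.2.1, and whether a further normalization named in the methods applies to the FPKM is not clear. The title and description of AT2-PBS replicate 3 carry different numbers, and the title was used.

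Log2(FPKM + 1) values of genes with at least 1 FPKM in at least 3 samples were fitted in limma 3.58.1 (R 4.3.3) with 4 group means and a mean-variance trend, and the study's criterion (p under 0.05, fold at least 1.4) was applied with adjusted values beside it. An exact permutation test of 3 against 3 samples cannot go below 0.1. The method was tested on simulated data. Per-sample values are given for members with an adjusted p under 0.05 and non-overlapping groups in a pairwise comparison and for the most abundant member of each family, and other members by means or changes. List genes are named where called, with Gclc and Gclm added. Members and lists were chosen with earlier results of these data known. Alternatives covered the filter, pseudocount, scaling, fit and single libraries; a Y-linked covariate, leaving out 2 libraries together and the sum of 3 mu genes were added after seeing the data. Sequences were read with Biopython 1.88 and figures drawn with matplotlib 3.10.9.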

Additional observations from a re-analysis of the deposited data

Results flagged for a closer look

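The effect of BLM differed between Atg5-/- AT2 and AT2, by limma's interaction term at an adjusted p under 0.05, in 13 members. The difference (effect in Atg5-/- AT2 minus effect in AT2, log2 scale) was -2.61 for Gpx2, -3.17 for Gsta2, -2.22 for Gsta3, -4.44 for Gsto1, -1.22 for Gstp1, -0.69 for Mgst1 and -1.34 for Prdx6. Among the mu transferases it was -1.69 for Gstm1, -1.77 for Gstm2, -1.64 for Gstm3, -1.98 for Gstm5, -2.90 for Gstm6 and -1.49 for Gstm7. With quantile normalization the difference for Mgst1 was -0.31 and not called. All 4 groups enter each of these values, among them the Atg5-/- AT2-PBS samples with the high sums of club, leukocyte, hepatocyte and fibroblast markers.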

How the results depend on the processing

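No call of a member changed direction in any alternative. In AT2-BLM against AT2-PBS, 9 of 22 calls were kept in every alternative, and scaling to Cdh1 gave 13 calls, not all of them among the 22. In Atg5-/- AT2-PBS against AT2-PBS 11 of 17 were kept in every alternative, and in Atg5-/- AT2-BLM against Atg5-/- AT2-PBS 9 of 11. In Atg5-/- AT2-BLM against AT2-BLM, 0 of 8 were kept: 5 members were called with no filter on low values, 5 when the other groups were left out of the fit, 1 with scaling to Cdh1, 2 with both AT2-PBS replicate 1 and AT2-BLM replicate 3 left out and 0 by limma's adjusted p. The interaction kept 12 of 20, with 13 by adjusted p. Leaving out 1 library at a time gave 17 to 22, 13 to 18, 11 to 13 and 3 to 9 members in these pairwise comparisons, in the order given, and 15 to 21 for the interaction. Causes were not tested.

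With the replicate block, 22, 17, 11 and 8 members were called in the same order and 21 for the interaction. With the Y-linked covariate, chosen after seeing the data, the counts were 22, 22, 12, 11 and 24. The block was not used because nothing in the labels says that same-numbered samples were paired. Correlations of their deviations from the group means ran from -0.24 to 0.23, which with 3 samples a group cannot settle it. Depth is unknown, so no counting error could be given, and members near 1 FPKM have the least certain values.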
